A study of Mus musculus with 6 samples.

Results

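The mouse mammary gland is a bilayered epithelium in which luminal cells line the ducts and basal cells lie against the basement membrane. CD29, the β1 integrin that anchors cells to that membrane, and CD24 are used together to sort it: CD24+CD29hi cells make up the basal fraction, which holds the myoepithelial cells that contract to move milk and is known for regenerating the gland on transplantation. The data described here set RNA from this CD29hi fraction (P4 in the labels, where it is called MaSC enriched, for mammary stem cells) against RNA from total mammary epithelial cells (MEC, with no enrichment named). The 4 arrays were chosen by their titles out of 6 arrays in the series, with 2 on each side.

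All mice were virgin and of strain C57/B6. One pair of arrays, P4 and MEC, came from wild-type (WT) mice and the other pair from DNP63 heterozygous (het) mice, whose genotype is given as a heterozygous DNP63 knockout. ΔNp63 is the short isoform class of p63 and the transcription factor that basal epithelia depend on. The remaining 2 arrays hold P5, the CD24+CD29lo fraction sorted from the same 2 genotypes and labelled as enriched for luminal progenitors, and serve as a reference. How many mice were pooled on an array, and their age, are not given in the sources used here. Every array compared the sample (Cy5) with Universal Mouse Reference RNA from a mix of 11 mouse cell lines (Cy3), so each value below is a log2 ratio of sample over reference unless said otherwise, and a difference is P4 minus MEC on the log2 scale.

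There was 1 array for each population and genotype. The fit over all 6 arrays (limma, population and genotype as terms) therefore measured its spread from how far the 2 genotypes disagreed about the populations. Each probe's spread, with 2 residual degrees of freedom, was pooled with that of probes of similar intensity (median prior degrees of freedom 4.74). The p-values cover no other spread. Both P4 arrays and both P5 arrays lay on slide 1 and both MEC arrays on slide 2, so population and slide cannot be told apart in P4 against MEC. Between 74.3% and 89.8% of the spots that are not controls were well above background in Cy5, the lowest share on the WT P4 array. Across probes, which are no replicates of each other, arrays of the same population correlated with r = 0.909 in P4 and 0.909 in MEC, against 0.739 between the WT P4 and WT MEC arrays and 0.677 between the het ones. These are bulk RNA measurements, in which fewer cells of a type and less RNA per cell cannot be told apart.

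Trp63, the gene of p63 and the one altered in the het mice, was higher in P4. Its brightest probe read 5.99 on the WT P4 array, 5.48 on het P4, 3.71 on WT MEC, 2.66 on het MEC, and 0.54 and 0.89 on the WT and het P5 arrays. Both P4 arrays thus stood above both MEC arrays, which stood above both P5 arrays. The difference was 2.55 (SE 0.32, adjusted p = 0.00539 by limma). Within P4 and within MEC the het array was the lower one, by an amount no replicate can test, and in P5 it was the higher one. This probe lies at chr16:25553466-25553525 on the build the array files name, mm7, for which no annotation was used here, so whether it covers the altered part of the gene is not known. Of the other probes of Trp63 one was also higher, by 0.66 (SE 0.15, adjusted p = 0.0359, limma), and one, at -0.07 (adjusted p = 0.699, limma), did not pass.

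Fzd7, a Frizzled receptor for Wnt ligands, was also higher in P4. It read 3.45 on WT P4, 2.65 on het P4, 1.39 on WT MEC and 0.25 on het MEC, with 0.32 and 0.33 on the P5 arrays. The groups did not overlap, but the het arrays were lower than the WT arrays in both populations. The difference was 2.23 (SE 0.29, adjusted p = 0.00578, limma) at chr1:59737506-59737565 on mm7. The second probe of Fzd7 differed by 0.28 (adjusted p = 0.256, limma).

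Mmp3, stromelysin 1, a secreted protease that cleaves basement membrane and other matrix proteins, had the most negative difference of all genes named here. It read -2.45 on WT P4 and -2.37 on het P4 against 3.20 on WT MEC and 1.93 on het MEC. The difference of -4.98 (SE 0.49, adjusted p = 0.00262, limma; chr9:7453874-7453933 on mm7) is a 31.5-fold lower ratio. The P5 arrays were also below both MEC arrays, at -3.92 and -2.85, and P4 did not pass against P5 (adjusted p = 0.263, limma).

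**Figure D1:**
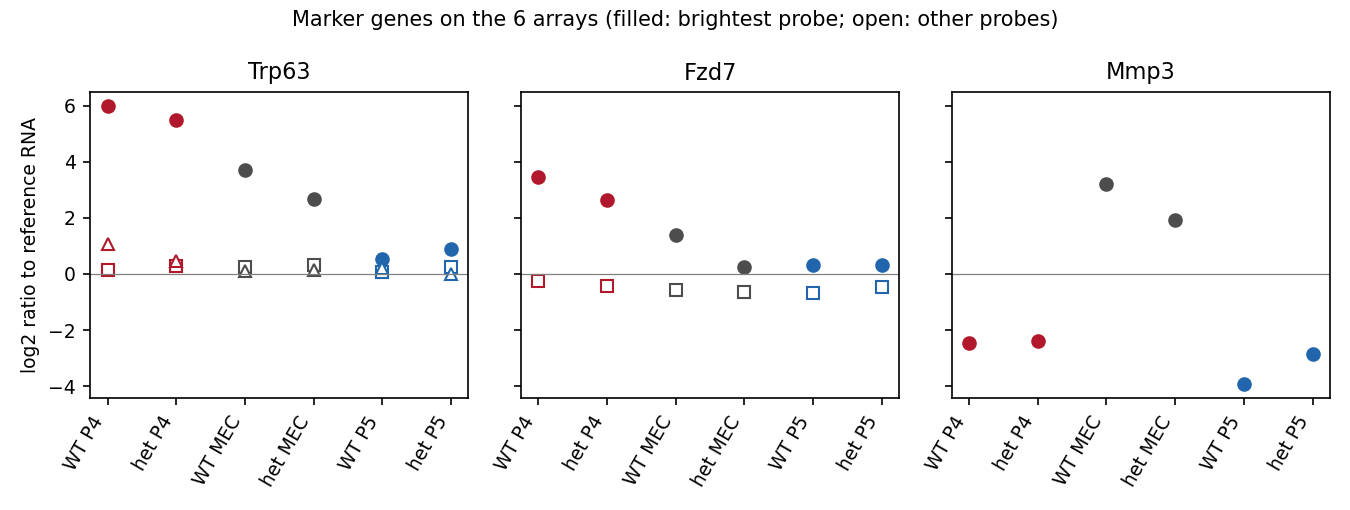
Log2 ratio to the reference RNA (vertical axis) of Trp63, Fzd7 and Mmp3 on each of the 6 arrays, 1 point per probe and array. The filled points of Trp63 fall from 5.99 on WT P4 to 0.54 on WT P5, those of Mmp3 are above 0 on the MEC arrays only, and the open points, which are the further probes of Trp63 and Fzd7, lie between -0.66 and 1.07.

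Of 41174 probes, 5857 (14.2%) were called at an adjusted p below 0.05. In P4 2961 of these were higher and 2896 lower. With each gene read from its brightest probe, 2346 of 27670 genes (8.48%) were called higher and 2036 (7.36%) lower, and the median difference of all genes was 0.04. The counts of called list members given below are to be read against these shares of all genes. None of the called genes had opposite signs in the WT pair and the het pair. That was largely set by the test, because the fit takes its spread in part from how far these pairs disagree. Across all genes the 2 pairs' differences correlated with r = 0.799, which is a description over genes that share the 4 arrays. At least 2-fold differences in both pairs were seen for 897 genes on the higher side and 970 on the lower side. The number of called probes fell when either P4 array was left out and rose without WT MEC. Such a fit keeps 1 array of that population and takes its spread from the other 2 populations alone. Its counts, given below for the lists, therefore depend on which arrays supply the spread and do not test a single array. The median difference of all genes was 0.06 without WT P4, 0.02 without het P4 and 0.06 without WT MEC. Centring each array on its median in place of the loess correction called 29618 probes, 40.4% of them higher against 50.6% in the fit described here, and moved the median difference of all genes to -0.29.

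**Figure D2:**
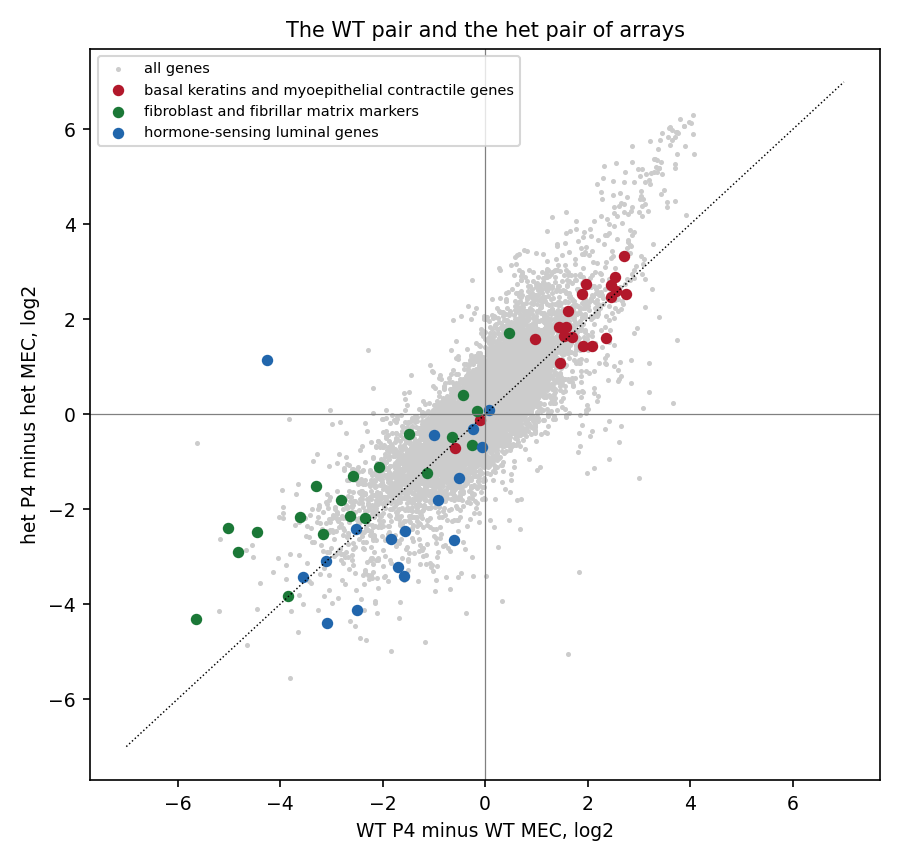
Difference between P4 and MEC in the het pair of arrays (vertical axis, log2) against that in the WT pair (horizontal axis, log2), 1 point per gene, with members of 3 gene lists in colour and a dotted line of equality. Contractile and basal keratin genes lie in the upper right apart from Des and Synpo2, and fibroblast genes lie mostly in the lower left. The blue point in the upper left is Calca, at -4.25 in the WT pair and 1.15 in the het pair.

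The genes of contraction and the basal keratins were the most uniform group on the high side. Of 20 measured, 18 were higher in P4 and 0 lower, with a median difference of 1.83 against 0.04 over all genes and a background of 8.48% of genes called higher. Tagln, the actin-binding protein transgelin, read 4.46 and 4.83 on the WT and het P4 arrays, 1.74 and 1.51 on the MEC arrays and -1.98 and -1.24 on the P5 arrays. P4 was therefore above MEC and MEC above P5 for this gene in both genotypes. The difference from MEC was 3.02 (SE 0.24, adjusted p = 0.00166, limma), an 8.12-fold higher ratio. Acta2, smooth muscle actin, differed by 2.71 (SE 0.21), Myh11, smooth muscle myosin heavy chain, by 2.65 (SE 0.18) and Mylk, the kinase that activates that myosin, by 2.21 (SE 0.36). Oxtr, the receptor through which oxytocin triggers contraction, differed by 1.68 (SE 0.17).

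Among the keratins of basal cells, Krt17 differed by 2.59 (SE 0.20), Krt5 by 1.89 (SE 0.25), Krt14 by 1.71 (SE 0.19) and Krt15 by 1.28 (SE 0.23). Krt14 read 4.88 and 5.39 in P4 and 3.30 and 3.55 in MEC, so that the MEC arrays were themselves well above the reference. The members that did not pass were Des, desmin, at -0.65 (adjusted p = 0.052, limma) and Synpo2 at -0.11 (adjusted p = 0.82, limma). Without the WT P4 array 4 of the 20 were called higher (median 1.68), and without het P4 4 (median 1.98). Median centring gave 6 higher and 2 lower, with a median of 0.28. Of these 20 genes 17 belong to the brightest 6918 of the 27670 genes, where median centring put the median of all genes at -1.61.

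Contractile genes in many tissues carry CArG boxes, the binding letters of serum response factor, near their start. In the RefSeq promoter windows of build GRCm38.p6, which run from 250 bases before to 50 after a start, 17 windows of 15 of these genes could be matched, and 1 of them held a CArG box, against 535 of 32851 windows (1.63%) in all, counted on both strands. It belongs to Myl9, the myosin regulatory light chain, which differed by 1.65 (adjusted p = 0.025, limma), and is shown here with the box in capitals, starting 161 bases before the gene start (chr2:156775283-156775332, plus strand).
Myl9: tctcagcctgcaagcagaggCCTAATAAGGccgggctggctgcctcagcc
The letters CATTCC, the site of TEAD factors, were found on either strand in 7 of the 17 windows (41.2%) and in 14.7% of all windows. Of 9 windows of 5 basal transcription factor genes, 4 held a CArG box and 2 the letters CATTCC. All 4 were windows of Egr2, which was not called (difference 0.67), so they are not separate genes. The CArG and CATTCC counts are matches of letters in a short window and say nothing about binding.

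Transcription factors of the basal lineage were led by Id4, an inhibitor of basic helix-loop-helix factors. It read 7.26 and 6.77 in P4, 4.84 and 2.95 in MEC and 0.07 and 0.50 in P5, and differed from MEC by 3.12 (SE 0.48, adjusted p = 0.0101, limma). Irx4, a homeobox factor, differed by 2.82 (SE 0.60, adjusted p = 0.0273, limma) and Snai2, the Slug repressor, by 2.51 (SE 0.55, adjusted p = 0.0304, limma). With the local backgrounds as deposited both missed the threshold, at adjusted p = 0.0572 and 0.0511 (limma). In all, 5 of 12 of these factors were higher, Trp63 and Tbx2 among them, with a list median of 0.77 that turned to -0.03 with median centring. The backgrounds as deposited gave 2 higher calls, and leaving out either P4 array gave 0. Snai2 was also lost with median centring, at 0.79 (adjusted p = 0.201, limma). Barx2, a homeobox factor, was the only one lower, reading 0.69 and 1.14 in P4 against 3.02 and 2.82 in MEC (difference -2.01, adjusted p = 0.0047, limma).

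Genes that fasten basal cells to the basement membrane were mostly higher. Of 20 hemidesmosome and basement membrane genes 12 were higher and 2 lower, with a median of 1.20 that became -0.43 with median centring (5 higher and 7 lower). Only 1 was called higher without WT P4 and 3 without het P4. Col7a1, the anchoring fibril collagen, read 5.10 and 5.11 in P4, 2.32 and 0.90 in MEC, and -0.27 and 0.10 in P5. Its difference was 3.50 (SE 0.41, adjusted p = 0.00435, limma); the P4 arrays were almost equal, and of the MEC arrays the het one was the lower. Col17a1, a transmembrane collagen of the hemidesmosome, differed by 2.92 (SE 0.30), and Lama3 and Lamb3, chains of laminin-332, by 2.39 and 2.01. Itga6 and Itgb4, which pair as the hemidesmosome's laminin receptor, differed by 1.25 and 1.27. The 2 lower members were the nidogens, linkers of laminin to collagen IV, with Nid1 at -1.74 (adjusted p = 0.0486, limma) and Nid2 at -1.24 (adjusted p = 0.0447, limma).

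Of 20 genes linked to p63 in epithelia, 13 were higher and 0 lower, with a median of 1.34 (-0.10 with median centring, 6 higher and 5 lower). The higher calls numbered 1 without WT P4 and 2 without het P4. The list shares Col17a1, Krt5, Krt14 and other members with the lists above. Its further leading members were Jag2, a Notch ligand, at 2.57, Igfbp3, a binding protein of insulin-like growth factors, at 2.33, Cdh3, P-cadherin, at 2.25 and Pkp1, a desmosome plaque protein, at 1.96. The members that did not pass included Perp at 0.67 and Sfn at -0.02, and Fgfr2, whose pairs disagreed (0.70 in the WT pair and -1.79 in the het pair).

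The sort markers themselves gave a mixed picture at the RNA level. Itgb1, which encodes CD29, read 1.62 and 1.03 in P4, 1.21 and 0.58 in MEC and 0.17 and -0.33 in P5. In each genotype P4 was above MEC, yet the WT MEC array was above the het P4 array, and the difference of 0.43 (SE 0.19, adjusted p = 0.173, limma) did not pass, while against P5 P4 was higher by 1.40 (adjusted p = 0.00552, limma). Cd24a, which encodes CD24, read 2.26 and 1.63 in P4 and 4.02 on het MEC. The WT MEC spot was left out as a scanner outlier, so its difference of -2.61 (SE 0.35, adjusted p = 0.00966, limma) rests on 5 arrays. Of 16 sort and stem-cell surface genes 4 were higher, Lgr5, Itgb3, Itga6 and Lgr6, and 6 lower, Ly6a, Cd14, Cd24a, Kit, Epcam and Procr. These became 1 and 1 without WT P4, and 1 and 2 without het P4. Procr, the protein C receptor, read 2.96 and 2.40 in P4, between 3.85 and 4.04 in MEC and 0.41 and 1.09 in P5.

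Wnt signalling is known in the mammary gland for maintaining basal stem cells, and starts when a Wnt ligand binds a Frizzled receptor and an LRP co-receptor. Of 20 receptor genes 9 were higher and 1 lower (median 0.63, and -0.21 with median centring, 4 higher and 7 lower). With the backgrounds as deposited 4 were higher, and leaving out either P4 array gave 1. Besides Fzd7 these included Lgr5 and Lgr4, receptors for the R-spondins that strengthen the signal (Lgr4 missed the threshold with the backgrounds as deposited, adjusted p = 0.0637, and with median centring, 0.605, limma), and Rnf43 and Znrf3, the ubiquitin ligases that remove Frizzled receptors and that R-spondins block. Lgr5 read 4.52 and 4.45 in P4, 2.60 and 2.21 in MEC and 0.69 and 0.71 in P5. Its difference was 2.08 (SE 0.16, adjusted p = 0.00158, limma), with adjusted p = 0.0713 (limma) when the local backgrounds were used as deposited. Rnf43 differed by 1.61 (SE 0.25) and Znrf3 by 1.43 (SE 0.23). Fzd4 was the only receptor lower, at -1.77 (SE 0.25, adjusted p = 0.00768, limma), and the co-receptors Lrp5 and Lrp6, both at -0.53, did not pass.

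Among 16 Wnt ligands and R-spondins 3 were higher and 3 lower, and leaving out either P4 array gave 0 calls. The 3 calls each way were 18.8% of the list, against 8.48% and 7.36% of all genes called higher and lower. Wnt10a differed by 2.30 (SE 0.39, adjusted p = 0.0141, limma, and adjusted p = 0.178 with median centring), Wnt11 by 1.50 and Wnt6 by 1.16. The call of Wnt11 was lost with the backgrounds as deposited (1.13, adjusted p = 0.184), with median centring (0.30, adjusted p = 0.329) and without the genotype term (adjusted p = 0.089, all limma). On the low side Wnt2 read 0.17 and 0.59 in P4 against 4.58 and 3.01 in MEC (difference -3.42, adjusted p = 0.00575, limma), and its P5 arrays, at 0.11 and 0.32, were level with P4. Wnt4, the ligand that luminal cells make under progesterone, read -0.75 and -0.82 in P4, 0.96 and 2.40 in MEC and 2.60 and 2.56 in P5. The ligands below MEC thus differed in where the P5 arrays lay. Of 22 feedback and target genes 3 were higher, led by Nkd1 at 2.08 (SE 0.38), and 5 lower, led by the secreted inhibitor Sfrp4 at -2.77 (SE 0.30). Nkd1 missed the threshold with the backgrounds as deposited (1.80, adjusted p = 0.0515, limma) and with median centring (0.53, adjusted p = 0.183, limma). Either P4 array left out gave 0 higher and 1 lower. With median centring the median of the feedback and target genes went from 0.09 to -0.74, with 5 higher and 11 lower. Axin2, a general Wnt target, stood at 0.38 (adjusted p = 0.479, limma).

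In the Notch pathway, where ligands on one cell activate receptors on its neighbour, some ligands were higher and most receptors lower. The ligands Jag2, Dll1 and Jag1 were higher by 2.57, 2.49 and 2.08 (SE 0.29, 0.26 and 0.28), while Dll4 at 0.35 (adjusted p = 0.357, limma) and Dll3 at 0.07 (adjusted p = 0.819, limma) did not pass. Jag2 read 4.29 and 4.43 in P4, 2.14 and 1.44 in MEC and -0.76 and -0.25 in P5. The receptors Notch1, Notch3 and Notch4 were lower, at -2.13, -2.46 and -1.44 (SE 0.18, 0.21 and 0.19), and Notch2, at 0.75 (adjusted p = 0.061, limma), did not pass. Notch1 read -0.63 and -0.77 in P4 and between 1.25 and 1.60 on the MEC and P5 arrays. Notch3 was also lower than P5 (-2.10, adjusted p = 0.00204, limma), but Notch4 did not pass against P5 (0.37, adjusted p = 0.277, limma). Notch3 and Heyl also count among the pericyte genes below. Nrarp, Mfng and Heyl, a feedback inhibitor, a modifier and a target of Notch, were the other 3 lower members of 18. Nrarp was lower than P5 too (-1.12, adjusted p = 0.00892, limma). Mfng and Heyl did not pass against P5 (0.55 and 0.09, adjusted p = 0.127 and 0.823, limma). The list had 0 higher and 1 lower without WT P4, and 1 higher and 2 lower without het P4.

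Luminal genes were lower in P4. Of 18 general luminal genes 0 were higher and 12 lower, with a median of -1.43 and a background of 7.36% of genes called lower. Leaving out either P4 array gave 1 lower call. Krt18, a keratin of simple epithelia, read 1.13 and 1.01 in P4, 3.32 and 4.33 in MEC and 5.03 and 4.40 in P5, in each genotype lowest in P4. Its difference was -2.76 (SE 0.34, adjusted p = 0.00511, limma). Krt19 differed by -2.78, Krt8 by -2.01 and the tight junction claudins Cldn7, Cldn4 and Cldn3 by -2.64, -2.34 and -1.08. Gata3, a factor luminal cells depend on, did not pass at 0.27 (adjusted p = 0.527, limma), nor did Ehf, Grhl2 and Muc1, at 0.24 to 0.33.

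Of 17 hormone-sensing luminal genes 0 were higher and 9 lower, with a median of -2.01, and 4 were lower when either P4 array was left out. Esr1, the estrogen receptor, read 0.38 and 0.29 in P4 against 3.47 and 3.39 in MEC, and Areg, the growth factor it induces, 2.26 and 1.13 against 5.35 and 5.52. Both were lower on each P4 array than on each MEC or P5 array, with differences of -3.10 (SE 0.24) and -3.74 (SE 0.31). Foxa1, Prlr and Stc2 were also lower, at -2.23, -2.49 and -3.31. Pgr, the progesterone receptor, was not well above background on either P4 array and did not pass at -1.36 (adjusted p = 0.171, limma).

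Luminal progenitor genes split. Of 14 measured 7 were lower (3 without WT P4 and 4 without het P4), among them Elf5, the alveolar factor, at -3.02 (SE 0.33), Cd14 at -3.37 (SE 0.25), Aldh1a3 at -2.79 (SE 0.19) and the receptor Kit at -1.96 (SE 0.33). Sox10 and Itgb3 were higher, at 1.78 (SE 0.22) and 1.70 (SE 0.26). Sox10 read 4.10 and 4.07 in P4, 2.56 and 2.04 in MEC and 3.15 and 3.20 in P5, so that both sorted fractions were above MEC. With median centring Sox10 stood at 0.25 (adjusted p = 0.244, limma). The list had 0 higher calls when either P4 array was left out. Of 16 milk and alveolar genes 3 were higher and 3 lower, 18.8% each, against 8.48% and 7.36% of all genes. Their median difference was -0.29, and -0.39 without WT P4 and -0.33 without het P4. The calls became 1 higher and 2 lower with the backgrounds as deposited, and 0 higher and 2 lower without the genotype term.

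**Figure D3:**
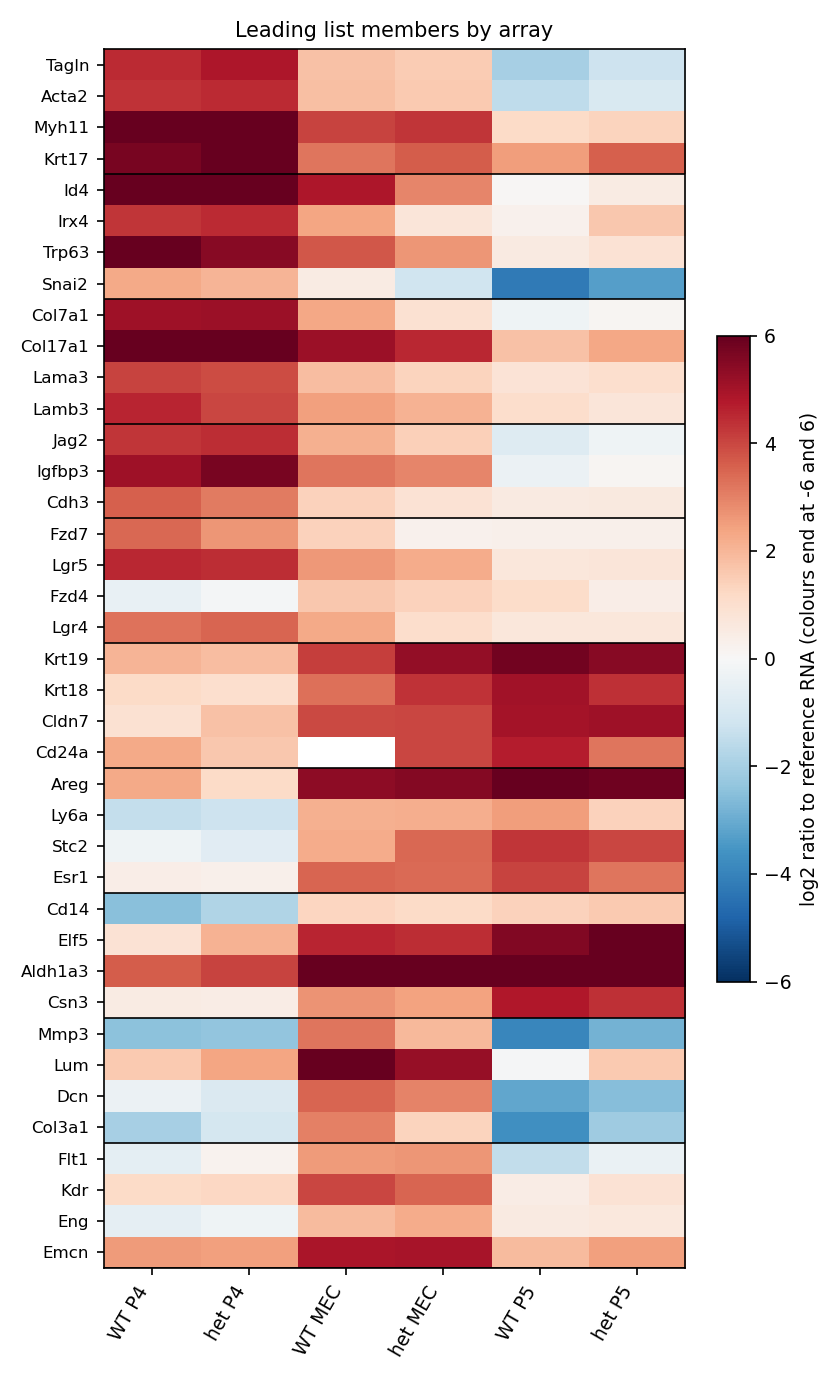
Log2 ratio to the reference RNA (colour) on the 6 arrays (columns) of the members with the largest differences in 10 gene lists (rows, blocks parted by lines; a gene on several lists is drawn once; the white cell is the Cd24a spot left out). Rows from Tagln to Lamb3 are reddest on the P4 arrays, rows from Krt19 to Csn3 are palest or bluest there, and rows from Mmp3 to Emcn are reddest on the MEC arrays.

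Most of the fibroblast, endothelial, pericyte and adipocyte genes on the lists were lower in P4. Of 20 fibroblast and fibrillar matrix genes 0 were higher and 14 lower, with a median of -2.29. Without WT P4 2 were lower and without het P4 3, and the mean over all probes of a gene gave 12 lower with a median of -1.26. Their mean ratio was 2.01 and 1.27 on the WT and het MEC arrays, -0.48 and -0.29 on the P4 arrays and -2.27 and -1.47 on the P5 arrays, and none was below background on both P4 arrays. Lum, the matrix proteoglycan lumican, read 6.42 and 5.25 in MEC, 1.59 and 2.35 in P4 and -0.08 and 1.56 in P5. Dcn, decorin, differed by -3.84 (SE 0.28), Col3a1 by -3.71 (SE 0.68) and Col1a1 by -3.46 (SE 0.51). Over all its probes Col3a1 stood at -1.10 and did not pass (adjusted p = 0.0961, limma). Postn, periostin, read 5.80 and 6.04 in P4 and 5.32 and 4.32 in MEC and did not pass at 1.10 (adjusted p = 0.272, limma).

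Of 18 endothelial genes 15 were lower (median -1.64), among them the VEGF receptors Flt1 at -2.78 and Kdr at -2.56. The lower calls numbered 5 without WT P4 and 3 without het P4. The mean ratio of the list was 3.29 and 3.23 in MEC, 1.56 and 1.76 in P4 and 0.91 and 1.50 in P5. Adipocyte genes were lower for 9 of 16 (median -1.24), with lipoprotein lipase, Lpl, at -3.01, and pericyte genes for 9 of 11 (median -1.15). When either P4 array was left out 4 adipocyte genes and 1 pericyte gene were lower. Mcam, which pericytes and other contractile cells carry, was the only pericyte gene higher, at 1.46 (SE 0.19). Leukocyte genes were lower for 5 of 20, led by Lyz2, lysozyme, at -3.01, and higher for 1, Cd3e, at 0.97, against 17 lower with median centring and 0 calls when either P4 array was left out. With all arrays in, 25% of the leukocyte genes were lower and 5% higher, against 7.36% and 8.48% of all genes. Mesenchymal transcription factors were lower for 7 of 12, including Twist1 at -2.12, Twist2 at -2.28 and Zeb1 at -1.21, and higher for 2, Snai2 and Tcf4. Without probes that hold the repeat letters of the telomere unit CCCTAA Tcf4 stood at 0.03 (adjusted p = 0.927, limma) and over all its probes at 0.67 (adjusted p = 0.12, limma). The list had 4 lower and 0 higher calls with the backgrounds as deposited, and 0 calls when either P4 array was left out.

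The levels of these stromal markers moved with the comparison of P4 and MEC as a whole, and their part in the other differences was not tested. Matrix metalloproteinases, of which fibroblasts make several, were lower for 4 members, Mmp3, Mmp15, Mmp16 and Mmp12 (the last not well above background in either group), and with the inhibitor Timp2 for 5 of 22 genes of that list. With the backgrounds as deposited 2 were lower, and with either P4 array left out 1. Mmp16 lost its call with the backgrounds as deposited (-0.33), with Cy5 alone (-0.43) and without probes that hold the repeat letters (-0.08; adjusted p = 0.167, 0.101 and 0.713, limma). Mmp15, a membrane-bound member, read 0.35 and 0.56 in P4, 2.93 and 3.27 in MEC and 3.90 and 3.80 in P5, unlike Mmp3, which was low in P5 too. Mmp2 and Mmp14 did not pass, at -0.45 and -0.36, and Mmp24 was the only one higher, at 0.70 (adjusted p = 0.0329, limma). That call was lost with the backgrounds as deposited (0.48), with median centring (0.14), over all probes (0.39) and without the genotype term (adjusted p = 0.197, 0.343, 0.0639 and 0.118, limma).

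Of the remaining lists, cell cycle genes had 0 calls in 21 with a median of 0.59, which became -0.95 and 20 lower calls with median centring, and 0.88 and 14 higher calls without WT MEC. Immediate-early and heat shock genes can follow the dissociation of tissue. Of 21, 4 (19%) were lower, Jun, Egr1, Fos and Jund, and 1 (4.76%) was higher, Hsph1. Median centring made 20 of them lower (median -2.04), and leaving out either P4 array gave 0 calls. Of 10 Schwann cell genes 1 was higher, Sox10, and 1 lower, Erbb3, a gene luminal cells also make, at -2.81. That is 10% each way, near the 8.48% and 7.36% of all genes called higher and lower. Erythroid genes had 0 calls in 5. Skeletal muscle genes were higher for Acta1 (2.30) and Myh2 (1.09) out of 8, or 25% against 8.48% of all genes. Acta1 did not pass with median centring (0.70, adjusted p = 0.0553, limma), nor Myh2 with the backgrounds as deposited (0.46), median centring (0.59), no intensity trend or no genotype term (adjusted p = 0.16, 0.0956, 0.0525 and 0.0565, limma). Among the 185 list members called in all, 80 had further probes. For 36 of the 80 none of the further probes was called the same way, Fzd7, Lgr5, Esr1, Jag1, Dcn, Kdr and Lyz2 among these. Erbb3, Krt8, Oxtr, Lama3, Sox10, Rnf43 and Itgb3 were also among the 36. For 2 others, Dsp and Prrx1, a further probe was called the opposite way.

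**Figure D4:**
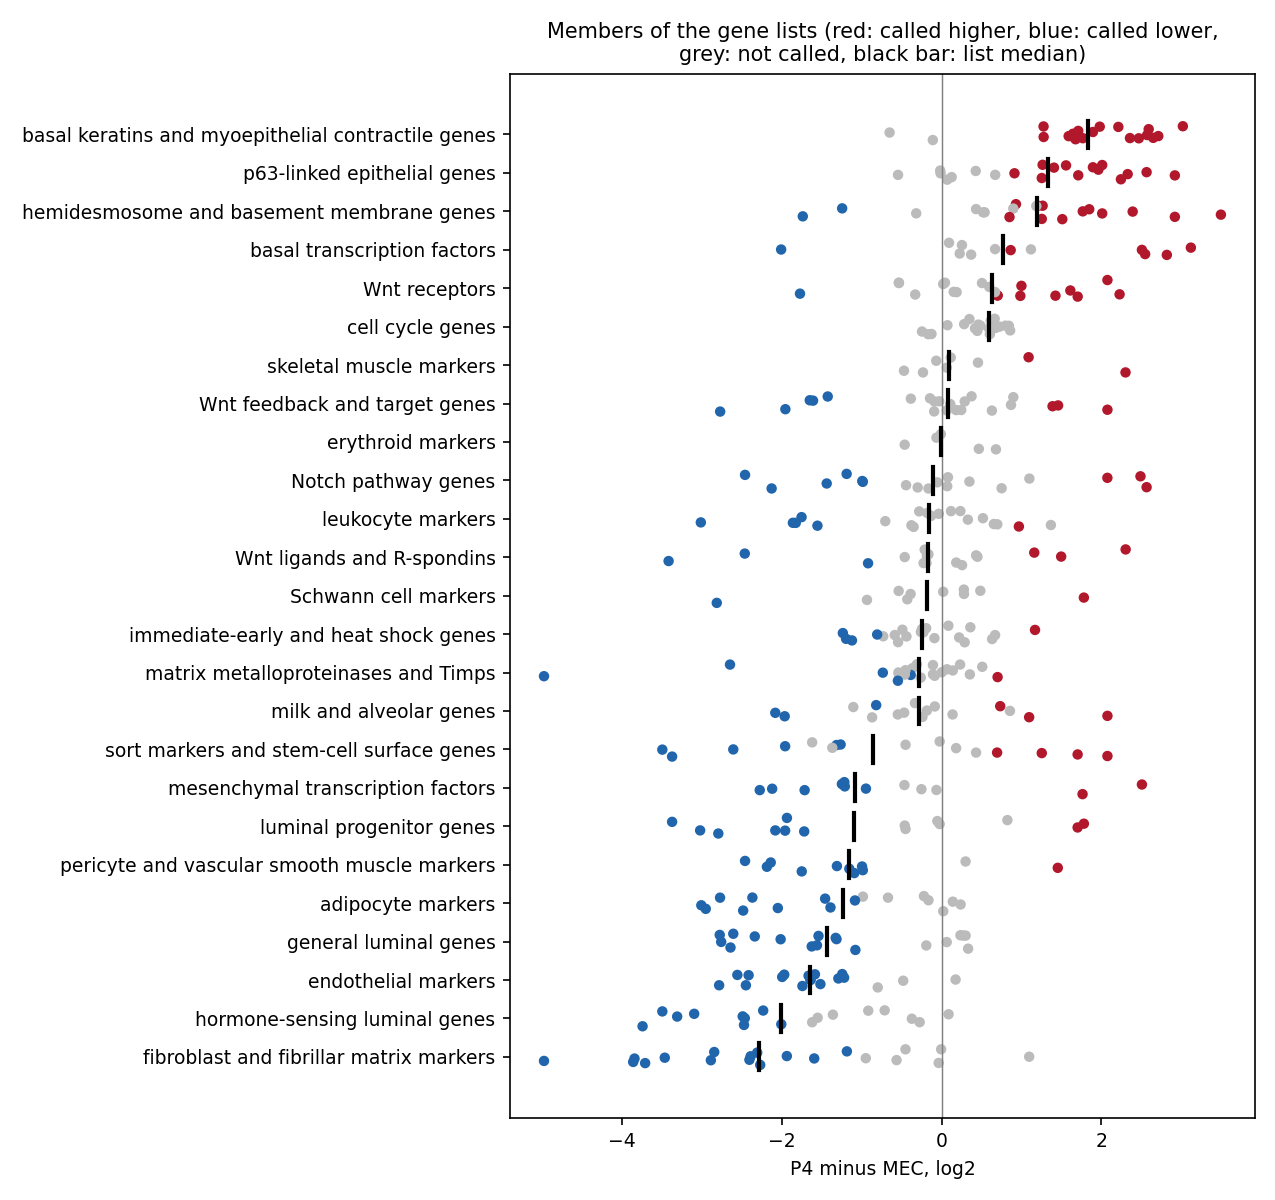
Difference between P4 and MEC (horizontal axis, log2) of each measured member of the 25 gene lists, 1 point per gene, with the list median as a black bar. Medians run from 1.83 for contractile genes and basal keratins to -2.29 for fibroblast genes. With median centring the medians of the p63-linked, hemidesmosome, basal factor, Wnt receptor, Wnt feedback, skeletal muscle and cell cycle lists fall below 0.

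The 15 called genes with the most negative differences, by the rule for named genes, ran from Mmp3 at -4.98 to Areg at -3.74. They were also Hp, Cst6, Ifi205, Idi1, Mboat1, Agtr1a, Fads2b, Plac8, Lum, Dcn, Sort1, Efemp1 and Pla1a. Hp, haptoglobin, which binds free hemoglobin, read -0.48 and -0.98 in P4, 4.17 and 3.89 in MEC and 4.35 and 3.61 in P5, a difference of -4.76 (SE 0.21, adjusted p = 0.000689, limma). Agtr1a, an angiotensin receptor, Mboat1, Plac8 and Sort1 likewise had both P4 arrays below both MEC and both P5 arrays. Cst6, an inhibitor of cysteine proteases, instead read -1.14 and -1.17 in P4, 2.67 and 4.38 in MEC and -1.19 and -1.12 in P5. Ifi205, Efemp1 and Pla1a, like Lum and Dcn, were lower on all 4 arrays of sorted cells than on both MEC arrays. Fads2b was not well above background on either P4 array and passed with an adjusted p of 0.000661 (limma).

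The 15 called genes with the largest positive differences are on none of the basal lists and shared a feature of their probes. They were Dnajb8, Syt6, Rad51d, Acot6, Bbip1, Zfp383, Eml6, Zfp422-ps, Evx2, Neurod2, Itgb8, Arhgap32, Pgk2, Duox2 and Ccdc33, with differences of 4.44 to 5.08. Several are known from other tissues, such as Neurod2, a neuronal transcription factor, and Pgk2, the glycolytic enzyme of the testis. All 15 probes held at least 1 of the 6 rotations of CCCTAA, the repeat unit of the vertebrate telomere, against 1981 of 41174 probes (4.81%). To show the shared letters, 24 bases of 5 of these probes are printed as on the array with the longest run of the repeat in capitals; the probes lie on different chromosomes of mm7.
Dnajb8 (chr6:88298223-88298282): gacagccaCCTAACCCatccctgg
Acot6 (chr12:82097699-82097758): acaatgttCCCTAACCattaaagc
Bbip1 (chr19:53843362-53843421): gatggtaCCTAACCCTgtaaccaa
Zfp383 (chr7:26859323-26859382): ttttcatTAACCCTAAtcctaatg
Pgk2 (chr17:38247663-38247722): caactcaaCCTAACCtatatctca

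On these 15 probes the WT P4 array read 2.81 to 4.43 and the het P4 array 4.95 to 6.47, higher on het for each of the 15. The P5 arrays, on the same slide, read 1.87 to 5.55, and the MEC arrays, on the other slide, -1.10 to 0.82. Only Pgk2 passed in P4 against P5 (adjusted p = 0.0158, limma). For 9 of the genes the array holds 14 further probes. Of these 13, all without the repeat letters, did not pass, with differences of -0.50 to 0.62, and 1, the second probe of Acot6, which holds the letters too, passed at 2.09.

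The pattern held over the whole array. Among probes without the letters the median difference was 0.02 and 6.69% were called higher. With 1 position of the repeat the median was 0.03, with 2 it was 0.21, with 3 it was 1.70, and with 4 or more it was 3.41 (41 probes, of which 35 were called higher and 0 lower). Over the same classes the median of P5 against MEC, which shares the MEC arrays, went from 0.003 through 0.01, 0.12 and 0.51 to 2.15. The reverse-complement letters showed no such rise, with medians of 0.02 without them and -0.11 at 4 or more positions (29 probes). Of the 100 called probes with the largest differences 82 held the letters. The part of slide, labelling and population in this was not tested.

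**Figure D5:**
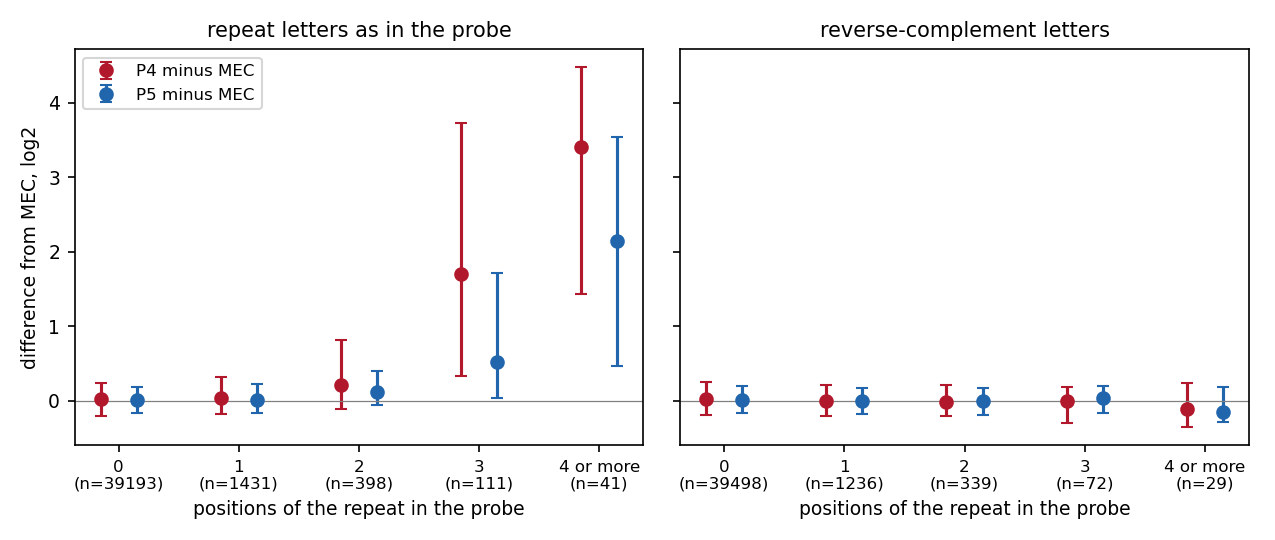
Difference from MEC (vertical axis, log2) by the number of positions at which a probe holds a rotation of CCCTAA (left) or of its reverse complement (right); points are medians over probes and bars run from the first to the third quartile. On the left the P4 median rises from 0.02 at 0 positions to 3.41 at 4 or more; on the right all medians lie between -0.15 and 0.04.

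The probes of Trp63, Fzd7 and Mmp3 hold none of these letters. Of 381 members of the gene lists 24 have a probe that does, at most at 2 positions. Of those 3 were called higher, Dst, Fzd3 and Tcf4, and 10 lower, against 8.48% and 7.36% of all genes. Without all probes that hold the letters 5456 of 39193 probes passed, 2660 higher and 2796 lower.

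Among genes whose probe lacks the letters, and which were called higher in P4 than in MEC and than in P5, large differences from MEC belonged to Sct, Speer5-ps1, Plaat5, Speer4d, Col7a1, Speer4a, Sostdc1, Llcfc1 and Col9a3. This set was chosen after the values were seen. Plaat5 read 3.45 and 4.55 in P4, 0.32 and 0.12 in MEC and 1.36 and 1.83 in P5. Llcfc1 read 2.76 and 3.79 in P4, -0.02 and 0.17 in MEC and 0.80 and 1.62 in P5. Both thus had MEC near the reference, P5 above MEC and het P4 highest, like the probes with the repeat letters. The reason for this likeness was not tested. Sct, the peptide hormone secretin, read 5.65 and 5.65 in P4, 1.95 and 1.17 in MEC and 0.21 and 0.45 in P5, a difference of 4.09 (SE 0.26, adjusted p = 0.00121, limma) and a 17.1-fold higher ratio. Speer5-ps1 read 6.85 and 7.50 in P4, 3.43 and 2.86 in MEC and 1.94 and 2.88 in P5. Speer5-ps1, Speer4d, Speer4a and Speer4f1 belong to one family of near-identical copies whose probes may read each other's transcripts, so they are not separate observations. Sostdc1, a secreted modulator of Wnt and BMP signals, differed by 3.32 (SE 0.31) and Col9a3, a collagen chain, by 3.18 (SE 0.21).

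Of the 2346 genes higher than MEC, 822 (35%) were also higher than P5, and of the 2036 lower than MEC 997 (49%) were also lower than P5, against 6.5% and 6.15% of all genes called higher and lower in P4 against P5. Both comparisons use the same P4 arrays, so these shares describe the arrays and are no independent support. Another 49 genes were lower than MEC and higher than P5.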

How the data were processed

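Gene expression was measured on 6 Agilent 2-colour arrays, 1 for each of 3 cell populations and 2 genotypes. Per the file headers, the authors scanned them with Agilent Feature Extraction 9.5.3.1, and the deposited files give each spot's mean signal and median local background as raw intensity, on probes placed on build mm7. Each deposited file also has the software's own log10 ratio of sample over reference. The deposited series table holds log2 ratios that correlated with it across probes at r = 0.9876 to 0.9995, with array medians of -0.044 to 0.101. How the series table was centred is not given in the sources used here.

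Local backgrounds marked as outliers by the scanner software, or above 2 times the channel's median, were replaced by that median, 237 to 935 per channel, because a few of them distort the background model. Values were then computed with R 4.3.3 and limma 3.58.1: normexp with an offset of 50, loess within arrays, spots of a probe averaged, 125 to 310 outlier spots per array left out. All 41174 non-control probes entered 1 fit of population and genotype over the 6 arrays (eBayes with an intensity trend, Benjamini-Hochberg, threshold 0.05). Genotype is the pairing of P4 with MEC and is a term of the fit. Probes printed 10 times gave a technical SD of 0.0738 to 0.107 among their spots within 1 array. Scaled to a difference of 2 arrays with that SD, this is 0.104 to 0.151. It leaves out variation between arrays, labellings and slides. The fit was checked on simulated data. Genes were read from their brightest probe; 22951 probes were named by accession, 6659 by symbol, 3109 by synonym and 8455 kept the array's name. Named genes are the 15 highest and 15 lowest called ones, the 3 markers, and up to 4 members with the largest differences per list, plus members a sentence counts. Members, lists, tests and the background rule were chosen with earlier results of these data known. A few genes are not reported here. Listed but not on the array were Hspg2, Lif, Ndufa4l2, Hbb-b1, Ahsp and Hspa1b. The alternatives were other backgrounds, normalizations, filters, fits and probe rules, and leaving out each array.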

Additional observations from a re-analysis of the deposited data

Results flagged for a closer look

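With 1 array per side in each genotype, differences between the WT pair and the het pair could not be tested. Of 379 list members measured in both pairs 62 had opposite signs, and 5 of them by at least 0.5 on the log2 scale on each side. Calca, the gene of calcitonin and CGRP, stood at -4.25 in the WT pair and 1.15 in the het pair. Its ratios were 0.13 on WT P4, 1.13 on het P4, 4.38 on WT MEC and -0.01 on het MEC, with -0.11 and 4.60 on the WT and het P5 arrays, so the high arrays were WT MEC and het P5. Rspo1, an R-spondin of luminal cells, stood at -2.28 and 1.36, and was likewise highest on WT MEC (4.79) and het P5 (4.78). Fgfr2, a receptor of fibroblast growth factors, stood at 0.70 and -1.79, Timp1, an inhibitor of metalloproteinases, at -1.44 and 0.82, and Hey1, a Notch target, at -0.62 and 0.51. None of these differences between the pairs was tested.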

How the results depend on the processing

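The number of called probes, 5857, became 2212 with local backgrounds as deposited (2189 shared), 29618 with median centring (3699 shared) and 2974 without the genotype term, which is the fit without the pairing. With the scanner software's log ratio limma called 0, with 13287 at an unadjusted p under 0.05 and a smallest adjusted p of 0.0501. There Trp63 stood at 2.10, Fzd7 at 2.13 and Mmp3 at -5.41 (adjusted p = 0.0702, 0.0587 and 0.0512, limma). The deposited series table, whose log2 ratios correlated closely with the scanner software's, gave 7271 calls (5384 shared). The 0 calls were thus not a property of these ratios alone. Leaving out 1 array gave 438 to 8835 probes, 2.06 to 3.03 for Trp63, 1.86 to 2.60 for Fzd7 and -5.90 to -4.06 for Mmp3. These 3 genes lost their call without WT P4 (adjusted p = 0.085, 0.0922 and 0.0604, limma) and without het P4 (0.0866, 0.0883 and 0.0579). The other 7 settings for the count, with the series table among them, lay within 1.5 times of 5857. Median centring reversed Mki67 to -0.87, Cdc20 to -0.92, Plk1 to -0.93, Hba-a1 to -0.58 and Hsph1 to -0.59. It leaves the signal-dependent trend in place: the median of all genes was 0.78 among the 6918 dimmest and -1.61 among the 6918 brightest, against -0.004 and 0.03 after loess. Without probes holding the repeat letters, chosen after seeing the data, Bbip1 stood at -0.43, Eml6 at -0.32 and Arhgap32 at -0.081. Over 126 genes and 18 settings, 2257 values in all, 8 changed sign where the value of the main fit or of the setting was called. With neither called, 1 more changed sign with Cy5 alone and 2 with median centring. The number of arrays limits the precision, and the slide cannot be told apart from the population.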
